A study of Mus musculus with 1536 samples.

Results

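The genes described here, *Plvap*, *Cd34*, *Emcn*, *Ackr1*, *Cd300lg*, *Selp*, *Sele*, *Icam1*, *Vcam1* and *Madcam1*, are best known from blood vessels and were chosen by name, not by their values. Of the 10 genes, 9 had a row among the 23168 genes of the expression matrix, and *Madcam1* was not analysed here. They were examined in lymphatic endothelial cells (LECs) from the nasopharyngeal mucosa of adult C57BL/6 mice aged 10–12 weeks. The labels name no transgene and no treatment. The mucosa of 30 mice of both sexes was pooled, digested with enzymes and stained, and CD31+ PDPN+ cells were sorted into wells and profiled by Smart-seq3, which reads full-length cDNA from each cell. No label ties a cell to a mouse or a plate, so all cells form 1 sample. Intervals are therefore exact 95% Clopper–Pearson intervals that cover counting error only, standard deviations (SD) describe the spread between cells, and no test between mice was possible.

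Blood vessels guide leukocytes and plasma into tissue through a sequence of surface proteins. Selectins catch passing cells on sialylated glycans, immunoglobulin-family adhesion molecules hold them by their integrins, and the atypical receptor ACKR1 presents chemokines, mostly in venules. PLVAP builds the diaphragms of fenestrae and caveolae, whereas CD34 and endomucin are sialomucins of the luminal glycocalyx. Lymphatic vessels take up fluid and leukocytes in the opposite direction, under the control of the transcription factor PROX1.

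The cells carried the lymphatic programme. *Mmrn1* was found in every cell, *Flt4* in 99.8% and *Prox1* in 97.7%, and the lowest share of the 10 lymphatic genes examined was 29.5%. Among 9 further blood endothelial genes with a row, 8 had shares under 10%, for example *Flt1* (2.49%) and *Vwf* (5.11%). The exception was *Gpihbp1*, which anchors lipoprotein lipase on capillaries and was found in 70.7%. Total reads ran from 7433 to 3524358 per cell with a median of 350746. Deeper cells show more genes, so co-occurrence was measured after every cell had been thinned to 20000 reads, which left out 51 shallow cells.

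The 9 genes fell into 6 that were common and 3 that were rare. *Emcn* was found in 94.2% of cells (95% interval 92.4–95.7%), *Plvap* in 77.8% (74.8–80.6%), *Icam1* in 74.8% (71.7–77.7%) and *Cd300lg* in 57.4% (53.9–60.7%). *Selp* was found in 33.3% (30.1–36.6%) and *Cd34* in 28.9% (25.8–32.1%). *Vcam1*, *Sele* and *Ackr1* were found in 4.51% (3.21–6.14%), 2.26% (1.36–3.50%) and 0.713% (0.262–1.54%). *Emcn* thus approached *Prox1* in its share of cells, whereas *Ackr1* was about as rare as the epithelial gene *Krt18* (0.831%).

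**Figure D1:**
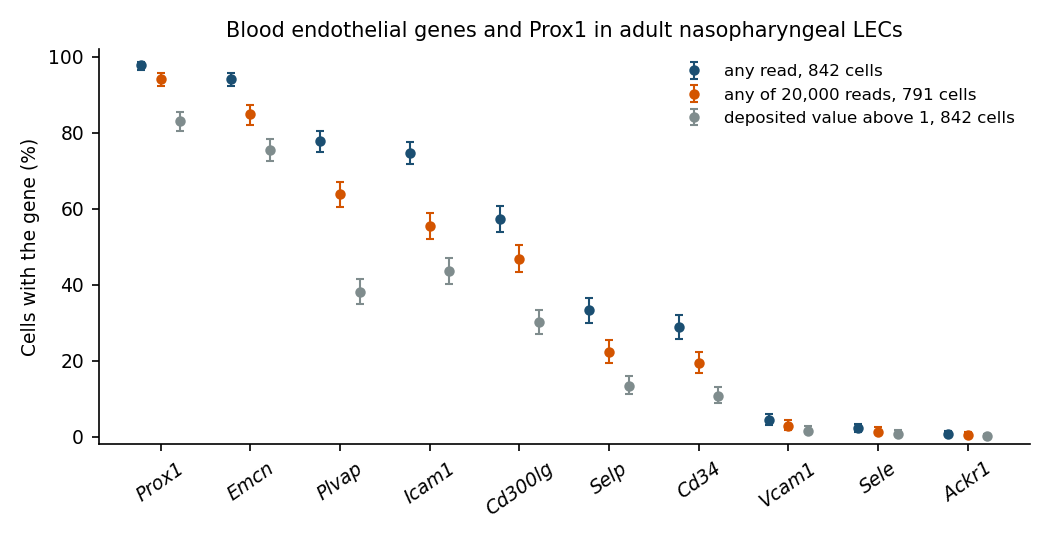
Share of cells (vertical axis, %) with *Prox1* and the 9 measured genes (horizontal axis), counting any read in all cells (blue), any of 20000 reads in thinned cells (orange) or a deposited value above 1 in all cells (grey), with exact 95% intervals as bars. *Emcn* stays highest of the 9 genes under each count, and *Vcam1*, *Sele* and *Ackr1* stay below 5%.

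The order of the shares depended little on depth, but their size did. At 20000 reads the shares were 84.8% for *Emcn*, 63.8% for *Plvap*, 55.5% for *Icam1*, 46.9% for *Cd300lg*, 22.4% for *Selp* and 19.5% for *Cd34*. The intervals of *Selp* (19.5–25.4%) and *Cd34* (16.8–22.4%) overlapped, as did those of *Plvap* and *Icam1* in the unthinned cells. Before thinning, the share of *Plvap* was 68.2% in the shallowest quartile of the cells and 87.7% in the deepest, and that of *Cd34* was 19.9% and 39.8%.

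Mean levels were divided by the length of all annotated exons of each gene. That length can differ from the length of the transcripts present, so the order of levels between genes is approximate. *Icam1* had the highest mean level with 1.08 reads per 10000 per kb, followed by *Emcn* with 1.04 and *Plvap* with 0.971. These 3 lay above *Prox1* (0.650), and *Cd300lg* (0.578) lay just below it. *Selp* followed with 0.209, *Cd34* with 0.0790, *Sele* with 0.0166, *Vcam1* with 0.00996 and *Ackr1* with 0.00441. *Icam1* thus came first in mean level per kb but after *Emcn* and *Plvap* in share of cells. Without the division by length, *Emcn* (5.63 reads per 10000) lay above *Icam1* (4.71).

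The genes differed in how their reads were spread over cells. The deposited value is the natural log of 1 plus reads per 10000. For *Emcn* it ran from 0 to 3.77 with a median of 1.72 and a mean of 1.58 ± 0.847 (SD over all cells), close to the 1.64 ± 0.700 of *Prox1*. For *Icam1* it ran from 0 to 4.57 with a median of 0.706 and a mean of 0.995 ± 1.09. *Emcn* therefore had 1 broad peak away from 0, whereas the values of *Icam1* were strung out from 0 to the highest value of any of the 9 genes. The tenth of cells with the most reads per 10000 held 29.3% of all *Emcn* signal, 41.4% of *Plvap*, 49.5% of *Cd300lg*, 60.3% of *Icam1*, 81.7% of *Cd34* and 84.3% of *Selp*.

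**Figure D2:**
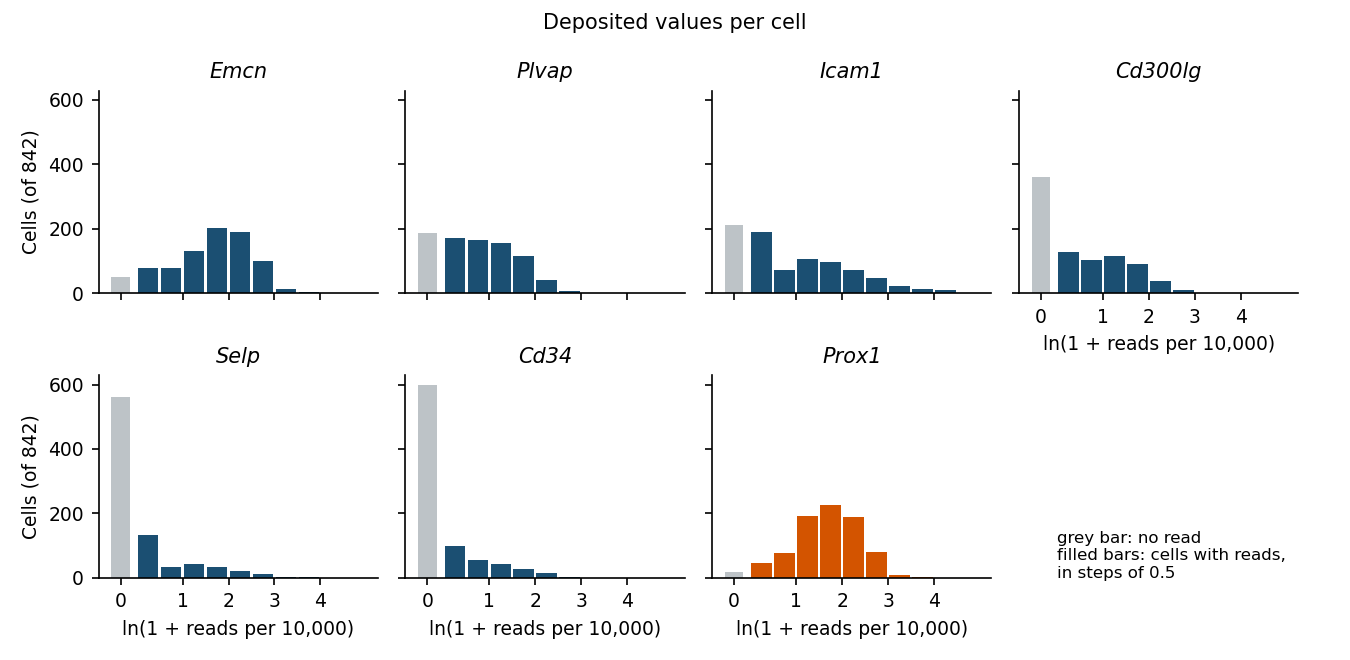
Number of cells (vertical axis) at each deposited value, ln(1 + reads per 10000) (horizontal axis), for the 6 common genes and *Prox1*. Grey bars are cells with no read, and filled bars are cells with reads in steps of 0.5. *Emcn* and *Prox1* peak between 1.5 and 2, whereas for *Selp* and *Cd34* the bar of cells with no read is by far the tallest.

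*Plvap*, on chromosome 8 (71497765–71511752, minus strand, GRCm38), encodes the protein that forms diaphragms across caveolae and fenestrae. Its deposited value ran from 0 to 3.17 with a median of 0.698 and a mean of 0.790 ± 0.721. Few cells were very high, and 38.1% had a value above 1. The machinery of caveolae was also present: all 8 genes of caveolae examined were found in at least 60.3% of cells, with *Cavin2* in 99.3% and *Cav1*, the main coat protein of caveolae, in 96.1%. *Cav1* tended to be lower where *Plvap* was higher over cells (Spearman's rho = −0.31, thinned cells of 1 pool). This was the 2nd lowest rho with *Plvap* among 7686 genes.

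*Cd34* encodes a sialomucin of the endothelial surface and lies on chromosome 1 (194938819–194961279, plus strand). Its value was 0 in the median cell and 2.79 in the highest, with a mean of 0.237 ± 0.533. Where it was found, the median was 18 reads, and 66 of the positive cells had only 1 or 2 reads. *Cd34* was thus both less frequent and weaker than *Plvap*. Its exons overlap those of *Gm16897* on the other strand, and whether the counting used strand is not given in the sources used here. *Podxl*, another sialomucin of the same family, was found in 88.7% of cells.

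*Emcn* encodes endomucin, a sialomucin that keeps leukocytes from adhering to vein and capillary walls, and lies on chromosome 3 (137341067–137432185, plus strand). A value above 1 was found in 75.5% of all cells, the highest such share of the 9 genes.

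*Cd300lg* encodes nepmucin, a sialic-acid-bearing adhesion receptor of capillaries and venules, and lies on chromosome 11 (102041509–102055620, plus strand). Its value ran from 0 to 3.07 with a median of 0.0678 and a mean of 0.611 ± 0.755. The low median hides a spread population, since 30.2% of cells had a value above 1.

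*Selp* encodes P-selectin, which endothelial cells and platelets store in granules and move to the surface on activation. It lies on chromosome 1 (164115264–164150026, plus strand). Its value was 0 in the median cell and reached 3.98 in the highest, with a mean of 0.289 ± 0.642. Of the positive cells, 89 had 1 or 2 reads, and 13.4% of all cells had a value above 1. *Selp* therefore ranged from cells with a trace of reads to a smaller number of strong cells. Platelet genes were scarce: *Pf4* and *Gp9* were found in 0.95% of cells each and *Itga2b* in 3.21%, and no more than 1 cell had 2 of the 3 platelet genes measured. *Selplg*, which encodes the main ligand of P-selectin on leukocytes, was found in 1.66%. Exons of *Selp* overlap those of *Gm16548* and *Gm16587* on the other strand.

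*Sele* encodes E-selectin, made by endothelium mainly after exposure to inflammatory cytokines, and lies next to *Selp* on chromosome 1 (164048234–164057677, plus strand). Its 19 positive cells had a median of 21 reads, 8 of them had only 1 or 2 reads, and the highest value was 2.47. All 19 cells had *Prox1*, *Flt4* and *Mmrn1*, as did 97.7%, 99.8% and 100% of the cells without *Sele*. Of other blood endothelial markers, *Sox17* was found in 2 of the 19 and *Rgcc* in 1, against 4.86% and 6.08% of the others. None of the 19 had *Flt1* or *Vwf*, which were found in only 2.55% and 5.22% of the cells without *Sele*.

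*Icam1* encodes the ligand of leukocyte β2 integrins and lies on chromosome 9 (21015985–21028817, plus strand). Its values had the largest SD of the 9 genes, 1.09 around a mean of 0.995. *Icam2*, a constitutive relative, was found in 74.5% of cells, much like *Icam1*, but its values had an SD of 0.687 around a mean of 0.795. Of 9 further genes of leukocyte passage, *F11r*, a junctional adhesion molecule, was found in 98.7%, whereas *Jam2* was found in 1.19% and *Aoc3* in 0.356%.

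*Vcam1* encodes the ligand of α4 integrins and lies on chromosome 3 (116109949–116129688, minus strand). It was found in 38 cells with a median of 19.5 reads and a highest value of 2.66, and 14 cells had a value above 1. All 38 cells had *Prox1*, *Flt4* and *Mmrn1*, as did 97.6%, 99.8% and 100% of the cells without *Vcam1*. *Icam1* was found in 34 of the 38 (89.5%, 75.2–97.1%) and in 74.1% of the others. *Flt1*, *Vwf* and *Rgcc* were each found in 3 of the 38 (7.89%, 1.66–21.4%), against 2.24%, 4.98% and 5.97% of the others. The cells with *Vcam1* were deeper, with a median of 535936 reads against 347858.

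*Ackr1* encodes an atypical chemokine receptor that marks venules and lies on chromosome 1 (173331886–173333750, minus strand). Its 6 cells had deposited values of 1.29, 0.812, 0.597, 0.351, 0.0630 and 0.0402, and each had *Prox1*, *Flt4*, *Mmrn1*, *Emcn*, *Cd300lg* and *Icam1*. In the cells without *Ackr1* these genes were found in 97.7%, 99.8%, 100%, 94.1%, 57.1% and 74.6%. The interval of 6 of 6 cells (54.1–100%) holds each of these shares. The 6 values form no group of strongly positive cells. Exons of *Ackr1* overlap those of *Cadm3* on the same strand, so reads in the overlap are uncertain. The related receptors *Ackr2* and *Ackr3* were found in 69% and 66.9% of cells, and *Ackr4* in 10.5%.

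Stretches of the promoters of *Icam1*, *Sele* and *Selp* are shown because these 3 genes are classical targets of cytokine signalling. A further reason was that *Icam1* and *Selp* were more frequent in cells with high levels of genes of NF-κB, TNF and IL-1 signalling. Of the 10 genes, 7 had a promoter in the RefSeq set (GRCm38.p6, 250 bases before to 50 after the start). Capitals mark GGAAATTCC, letters bound by NF-κB, TTCNNNGAA, bound by STAT factors, and TGANTCA. The last is looser than the letters bound by AP-1, which have C or G at N. The motifs were chosen after the letters had been seen, both strands were searched, and none of the marked stretches overlap each other. The windows lie on the plus strand at chr9:21015775-21015910 (*Icam1*), chr1:164048084-164048179 (*Sele*) and chr1:164115114-164115144 (*Selp*), each upstream of its gene's start in RefSeq. For *Icam1* that start is 21015940, upstream of the GENCODE start given above, whereas for the selectins both agree.
Icam1: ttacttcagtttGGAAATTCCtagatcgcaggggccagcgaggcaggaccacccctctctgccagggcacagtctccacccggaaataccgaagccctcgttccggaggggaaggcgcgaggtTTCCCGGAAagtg
Sele: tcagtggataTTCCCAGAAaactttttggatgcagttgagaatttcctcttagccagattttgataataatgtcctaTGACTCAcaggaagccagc
Selp: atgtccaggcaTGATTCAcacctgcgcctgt

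*Icam1* held GGAAATTCC and, 42 bases before its RefSeq start, TTCCCGGAA. *Sele* held TTCCCAGAA 140 bases and TGACTCA 73 bases before its start. *Selp* held TGATTCA, which has T at N and so is not among the letters bound by AP-1. Among 32851 promoters, 0.286% held GGAAATTCC, 7.02% TTCNNNGAA and 6.75% TGANTCA in the 250 bases before the start. A match describes letters only and shows no binding.

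Every cell had reads of at least 1 of the 9 genes, with a median of 4 and a range of 1–7 (mean 3.74 ± 1.21). At least 4 were found in 57.4% of cells (53.9–60.7%). At 20000 reads the median was 3, at least 3 genes were found in 65.9% of cells, and 10 cells had none. Most cells therefore carried several of these genes, and the combination varied from cell to cell.

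To see whether the genes kept company, cells with both genes of a pair were counted against the number expected if the 2 were independent. Over the 15 pairs of the 6 common genes at 20000 reads, the ratio of observed to expected cells ran from 0.858 (*Cd34* with *Cd300lg*) to 1.18 (*Selp* with *Icam1*, and *Plvap* with *Cd34*), with a median of 1.03. The counting interval of the ratio held 1 in all 15 pairs. It takes no account of how the shares of the 2 genes limit the count, so it is wide for common genes. An interval that holds 1 therefore does not show that 2 genes were independent. *Plvap*, *Emcn*, *Cd300lg* and *Icam1* were found together in 13.7% of cells (11.3–16.2%), against 14.1% expected, and all 6 common genes in 3 cells, against 4.86 expected. In the unthinned cells, where depth differed, all 6 were found in 38 cells against 25.4 expected.

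**Figure D3:**
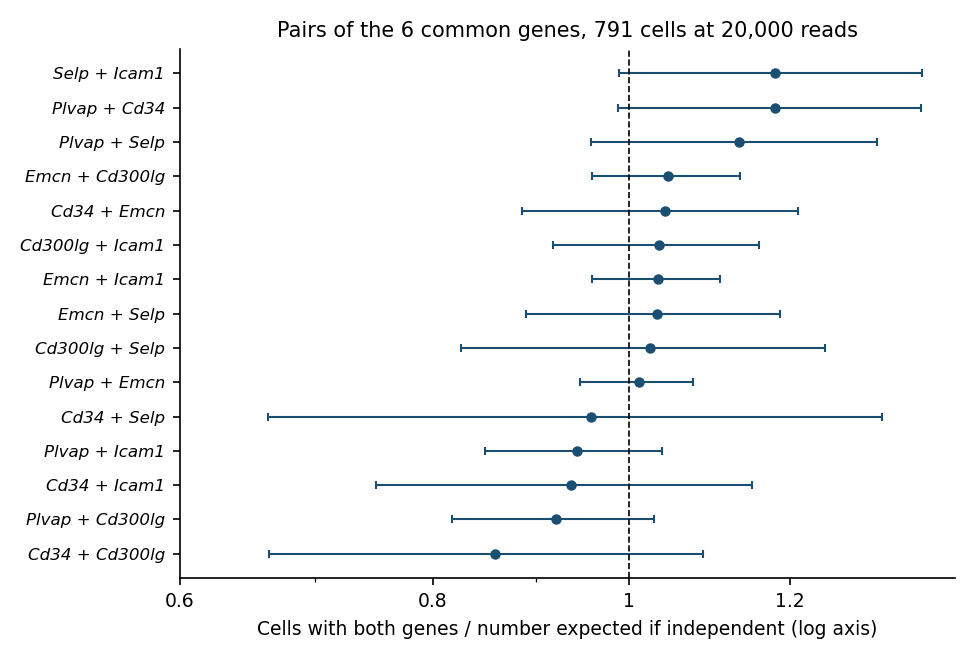
Ratio of cells with both genes to the number expected if independent (horizontal log axis) for the 15 pairs of common genes (vertical axis) in cells thinned to 20000 reads. Points are ratios, bars are 95% counting intervals and the dashed line marks 1. Ratios run from 0.858 to 1.18 and every bar crosses the line. The bars are wide for common genes, and crossing the line does not show independence.

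A finer view compared the share of 1 gene in cells with and without the other, and in 3 of the 15 pairs these intervals did not overlap. *Cd34* was found in 23% of *Plvap*-positive cells (19.4–26.9%) and in 13.3% of the others (9.58–17.8%). *Icam1* was found in 65.5% of *Selp*-positive cells (58–72.5%) and in 52.6% of the others (48.6–56.6%). *Cd300lg* was found in 49% of *Emcn*-positive cells (45.2–52.9%) and in 35% of the others (26.5–44.2%). Over the 15 pairs, Spearman's rho between values ran from −0.13 to 0.14, where both genes come from the same library and depth.

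Of all 36 pairs at 20000 reads, only the selectins had a ratio whose interval lay above 1, and it rests on few cells. The ratio of *Ackr1* with *Vcam1* was higher, 8.60 (0.218–47.8), but came from 1 cell with both genes. *Selp* was found in 8 of the 11 cells with *Sele* at 20000 reads, against 2.46 expected, a ratio of 3.25 (1.41–6.37). In the unthinned cells it was found in 13 of 19 with *Sele* (68.4%, 43.4–87.4%) and in 32.4% of the others. *Icam1* and *Plvap* were each found in 17 of those 19 cells (66.9–98.7%). That interval holds their shares in the cells without *Sele*, 74.5% and 77.5%. The selectin pair was singled out after the values had been seen.

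*Emcn* and *Cd300lg* were found more often in cells with *Prox1* than in the 46 thinned cells without it. *Cd300lg* was found in 48.3% of cells with *Prox1* (44.7–52%) and 23.9% of cells without it (12.6–38.8%). For *Emcn* the shares were 85.9% (83.2–88.3%) and 67.4% (52–80.5%). At 50000 reads the intervals of both genes were separate again, with 22 cells without *Prox1*, whereas in the unthinned cells those of *Cd300lg* overlapped. *Plvap*, *Icam1*, *Selp* and *Cd34* had overlapping intervals with and without *Prox1* at 20000 reads. Since most cells had *Prox1*, the ratio of observed to expected cells lay between 1.005 and 1.03 for the 6 common genes. *Prox1* was found in 94.7% of *Plvap*-positive cells (92.3–96.4%), 95.4% of *Emcn*-positive cells and 97% of *Cd300lg*-positive cells. The level of *Prox1* went the other way with *Emcn*: its mean value was 1.58 ± 0.707 in cells with *Emcn* and 1.75 ± 0.903 in cells without it (SD over cells, rho = −0.10). For *Plvap* the means were 1.61 ± 0.724 and 1.60 ± 0.774.

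The 19 cells without a read of *Prox1* were mostly shallow, with a median of 21923 reads against 381490 in the others. All 19 had *Flt4*, *Mmrn1* and *Cdh5*, as did 99.8%, 100% and 99.1% of the cells with *Prox1*. *Emcn* was found in 14 of them, *Plvap* in 11, *Icam1* in 9, *Cd300lg* and *Selp* in 7 each and *Cd34* in 2, whereas *Ackr1*, *Sele*, *Vcam1*, *Flt1* and *Vwf* were found in none. A share of 0 of 19 allows up to 17.6%. Among the other blood endothelial genes, *Gpihbp1* was found in 10 of the 19 cells and *Rgcc* in 3. For *Rgcc* this was 15.8% (3.38–39.6%), against 5.83% of cells with *Prox1*.

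Most cells had none of 8 blood endothelial markers. This set left out *Gpihbp1*, which was found in 70.5% of the cells with none of the 8. In the cells with none of 8 such markers (*Flt1*, *Nrp1*, *Vwf*, *Ly6c1*, *Car4*, *Rgcc*, *Sox17* and *Esm1*), *Emcn* was found in 94.3%, *Plvap* in 76.5%, *Icam1* in 73.4%, *Cd300lg* in 58.9%, *Selp* in 32.2% and *Cd34* in 29.4%. In the cells with 1 marker, *Cd300lg* was found in 50% (41.4–58.6%), and its mean value was 0.425 ± 0.643 against 0.656 ± 0.774 in the cells with none. *Plvap* was found in 83.6% (76.4–89.3%), *Icam1* in 80.7% (73.2–86.9%), *Selp* in 39.3% (31.1–47.9%) and *Emcn* in 93.6% (88.1–97%) of the cells with 1 marker. The interval of each gene overlapped that in the cells with none, and the cells with 1 marker were deeper, with a median of 518183 reads against 293500. All 6 cells with *Ackr1* and 16 of the 19 with *Sele* had none of the 8 markers, but so did most cells of the pool. These counts therefore do not set the cells with *Ackr1* or *Sele* apart. *Sele* was found in 2.34% of the cells with none (1.34–3.77%) and in 2.14% of those with 1 marker (0.444–6.13%). For *Ackr1* the shares were 0.877% (0.323–1.9%) and 0% (up to 2.6%), again with overlapping intervals. Only 18 cells had 2 or more of the markers, and all 18 had *Prox1*, as did 97.7% of the cells with none.

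Markers of other cell types were examined in the same way. *Ptprc*, a leukocyte marker, and *Cd3e*, a T cell marker, were found in 0 cells, which allows a share of up to 0.356%, and 3 cells had 3 or more of 5 markers of another type. *Cd68* was found in 15.7%, *Dcn* in 12.4% and *Kcnj8* in 39.7%. In 52 wells *Xist* was found with a Y chromosome gene. The part of such wells in the results was not tested, but the shares and pair ratios without them are given with the other settings.

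Several of the genes differed in share between cells with and without reads of a single subtype gene. No cell was assigned to a subtype. *Stab2*, a scavenger receptor of capillary LECs, divided the thinned cells into those with and without its reads. *Plvap* was found in 78.1% of the cells with *Stab2* (73.1–82.5%) against 54.2% of the others (49.6–58.8%), and *Selp* in 37.3% (32–42.9%) against 12.3% (9.46–15.6%). *Plvap* and *Selp* were thus both more frequent with *Stab2*. When the expected number was summed within cells with and without *Stab2*, the ratio for *Plvap* with *Selp* was 1.03, compared with 1.13 over all cells.

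*Fndc1*, another capillary marker, divided the genes differently. In *Fndc1*-positive cells, *Cd300lg* was found in 63.6% (56.5–70.3%) against 41.3% (37.3–45.4%), and *Emcn* in 92.4% (87.8–95.7%) against 82.3% (79–85.3%). *Plvap* was found in 44.4% (37.4–51.7%) against 70.3% (66.5–74%), and *Selp* in 14.6% (10–20.4%) against 25% (21.5–28.6%). With and without *Stab2*, the intervals of *Cd300lg* (35.9–47% and 46–55.2%) and *Emcn* (78.8–87.3% and 82.3–88.8%) overlapped, as did those of *Icam1* and *Cd34*. With and without *Fndc1*, the intervals of *Icam1* (56–69.9% and 48.8–57%) and of *Cd34* overlapped.

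**Figure D4:**
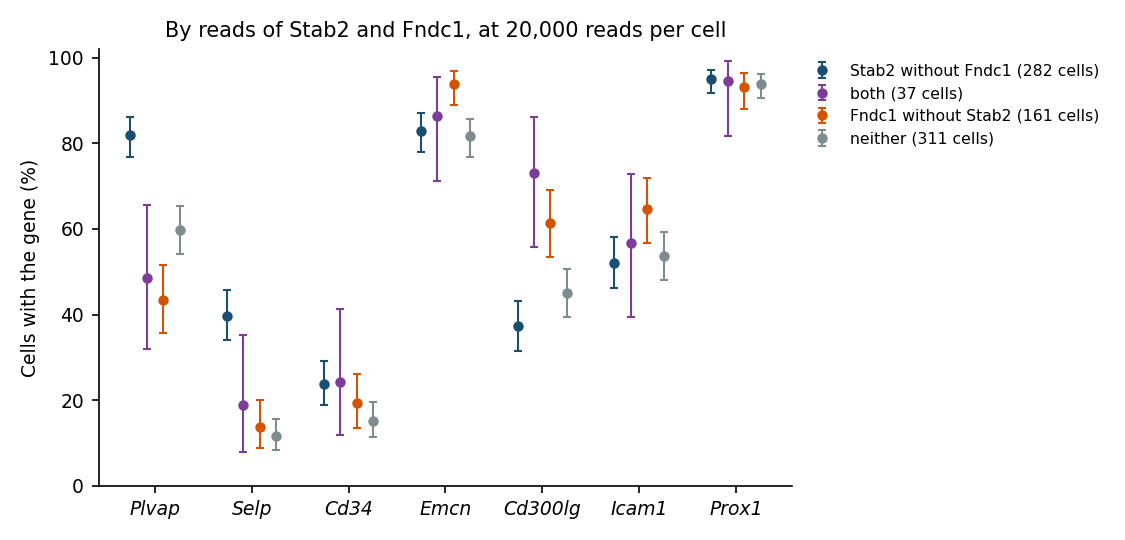
Share of cells (vertical axis, %) with 6 common genes and *Prox1* (horizontal axis) in cells with *Stab2* but not *Fndc1* (blue), 37 cells with both (purple), cells with *Fndc1* but not *Stab2* (orange) and cells with neither (grey), at 20000 reads, with exact 95% intervals. *Plvap* runs from 43.5% in the *Fndc1* cells to 81.9% in the *Stab2* cells and *Cd300lg* the other way from 61.5% to 37.2%, whereas *Prox1* stays between 93.2% and 95%. *Cd300lg* is highest in the cells with both, at 73% (55.9–86.2%).

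The remaining subtype genes differed in which of the genes they divided. *Cd300lg* was found in 56.9% of *Lyve1*-positive cells (52.3–61.4%) and in 31.6% of the others (26.5–37.1%), whereas *Plvap* was found in 61.7% and 67.1%, with overlapping intervals. In cells with *Igfbp5*, a gene high in collecting vessels, *Selp* was found in 13.4% (10.3–17.2%) against 31.6% of the others (27–36.5%). *Selp* was also less frequent with *Ptn* (10.3%, 5.91–16.5%) than without it (25.1%, 21.8–28.6%), and less frequent with *Gja4* (15.8%, 11.8–20.4%) than without it (26.4%, 22.5–30.5%). *Plvap* was found in 80.5% of cells with *Ptx3* (70.6–88.2%) and 61.8% of the others (58.1–65.4%). *Foxp2* was the one subtype gene whose intervals separated *Cd34*, found in 14.5% with it (10.9–18.7%) and 23.2% without it (19.4–27.3%). None of the 6 common genes had separate intervals for the valve marker *Cldn11*. Of the rare genes, all 4 thinned cells with *Ackr1* and 13 of the 23 with *Vcam1* were among the 220 cells with *Cldn11*, against 1.11 and 6.40 expected. Their intervals with and without *Cldn11* overlapped as well. They were 0.498–4.59% and 0–0.644% for *Ackr1*, and 3.18–9.89% and 0.843–3.20% for *Vcam1*. Other pairings of rare genes with subtype genes are not given here.

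The genes most like each member over cells were named by rank correlation across 7686 genes, over thinned cells of 1 pool. *Plvap* came closest to *Sparc* (rho = 0.41), *Stab2* (0.38) and *Gm525* (0.35), and *Selp* to *Gm525* (0.35), *Sema7a* (0.34) and *Stab2* (0.34). *Cd300lg* came closest to *Lyve1* (0.32), *Tgfbi* (0.29) and *Prelp* (0.28). *Emcn* came closest to *Ephx1* (0.29) and *Serpine2* (0.27), and *Cd34* to *Sparc* (0.24), *Tmem176a* (0.18) and *Adamtsl1* (0.18). *Icam1* came closest to *Socs3* (0.40), *Sbno2* (0.38) and *Irf1* (0.36). No gene reached 0.18 with *Prox1* except *Marcksl1* (0.18). A rho of at least 0.3 was reached by 12 genes for *Icam1*, 9 for *Plvap*, 4 for *Selp*, 1 for *Cd300lg* and 0 for *Emcn*, *Cd34* and *Prox1*.

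*Icam1* moved with genes that respond to dissociation. *Socs3* is among the 15 immediate-early and stress genes of that list. In quartiles of the cells ordered by the mean of the list, *Icam1* was found in 29.3% (23.1–36.2%), 57.6% (50.4–64.6%), 63.1% (56–69.9%) and 72.1% (65.3–78.2%), from the lowest to the highest. Its mean value was 0.359 ± 0.680, 0.875 ± 0.984, 1.23 ± 1.17 and 1.46 ± 1.25. The lowest quartile stood apart from the others, and over all cells rho was 0.38. The other common genes had a rho between −0.04 and 0.09 with the list, and *Prox1* 0.07. The mucosa had been digested with enzymes before the sort, and the part of this step in the level of *Icam1* was not tested.

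**Figure D5:**
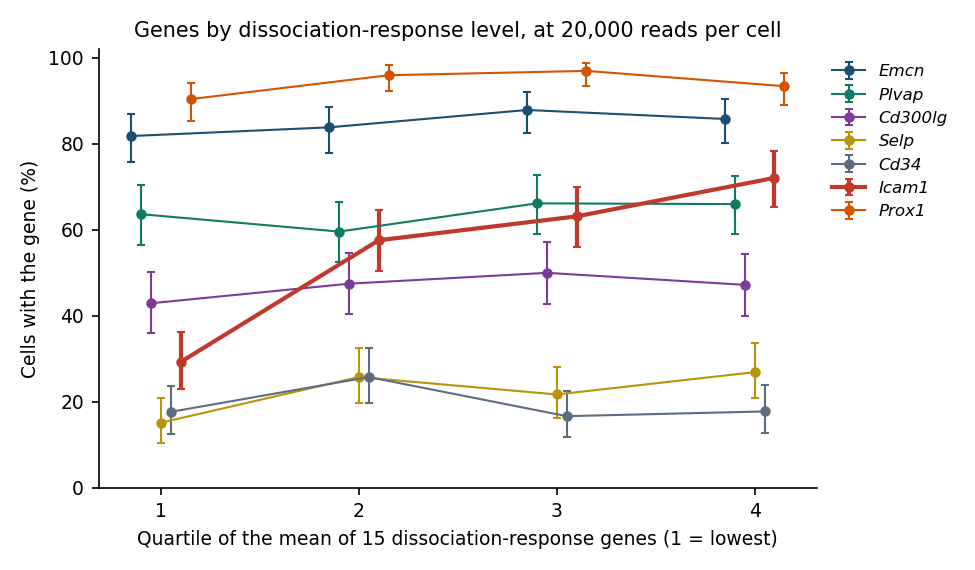
Share of cells (vertical axis, %) with 6 common genes and *Prox1* in quartiles of the thinned cells ordered by the mean of 15 dissociation-response genes (horizontal axis), with exact 95% intervals. *Icam1* (thick red line) goes from 29.3% to 72.1%, whereas *Emcn* stays between 81.8% and 87.9%.

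A list of 12 genes of NF-κB, TNF and IL-1 signalling gave a second ordering. From its lowest to its highest quartile, *Icam1* went from 37.9% (31.1–45%) to 68% (61–74.5%) and *Selp* from 13.6% (9.18–19.2%) to 36.5% (29.8–43.7%). *Icam1* and *Selp* had a rho of 0.25 and 0.22 with the list. The other common genes lay between −0.02 and 0.08. When the expected number was summed within quartiles of the dissociation list, the ratio for *Selp* with *Icam1* was 1.12, compared with 1.18 over all cells.

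Mean reads per 10000 were then compared between thinned cells with and without each common gene, over 9655 genes found in at least 5% of cells, as the log2 ratio after adding 0.1. A gene counted as different past 2-fold. With *Plvap*, 0.238% of all genes were higher and 0.207% lower, and none of the other 5 common genes was among them. *Stab2* (log2 ratio 1.79) and the immune-associated capillary gene *Ptx3* (1.14) were higher, and *Fndc1* (−1.62) was lower. With *Cd34*, 0.166% were higher and 0.166% lower. Of the 5 other common genes, 1 was lower, *Icam1* (−1.19), with 2.31 reads per 10000 in cells with *Cd34* against 5.40 in cells without it.

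With *Emcn*, 0.445% of genes were higher and 0.735% lower, with none of the 5 others past 2-fold and *Ackr4* higher by 1.5. With *Cd300lg*, 0.114% were higher and 0.176% lower, *Lyve1* was higher by 1.25 and *Stab2* lower (−1.04). With *Selp*, 0.259% were higher and 0.663% lower. *Stab2* was higher by 1.46, and *Igfbp5* (−2.19), *Ptn* (−1.87), *Ackr4* (−1.78), *Fndc1* (−1.54), *Ackr3* (−1.32) and *Gja4* (−1.27) were lower. With *Icam1*, 0.228% were higher and 0.0518% lower. Of the 5 others, 1 was higher, *Selp* (1.46), with 1.35 reads per 10000 against 0.425. These shares rested in part on single cells: without each gene's highest cell, 0.176% of genes were lower with *Emcn* and 0.0932% higher with *Cd34*. With a pseudocount of 1, *Icam1* with *Cd34* (−0.95) and *Selp* with *Icam1* (0.72) were no longer past 2-fold. Those of the genes just named that stayed past it were *Stab2* with *Plvap* (1.29) and with *Selp* (1.18), *Lyve1* with *Cd300lg* (1.16), *Igfbp5* with *Selp* (−1.82) and *Ackr3* with *Selp* (−1.04).

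The lists moved less than single genes. The median log2 ratio of the 15 dissociation genes was 0.74 with *Icam1*, against −0.04 over all genes, with 0 of 15 past 2-fold and *Nr4a1* (0.94) and *Egr1* (0.93) the highest. That of 10 measured NF-κB, TNF and IL-1 genes was 0.43 with *Selp* and 0.30 with *Icam1*, with none past 2-fold. The 8 caveolar genes had a median of −0.16 with *Plvap* and −0.32 with *Selp*, against 0.01 and −0.03 over all genes. Lymphatic genes had medians between −0.19 and 0.14 with the 6 genes.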

How the data were processed

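Single LECs of 1 adult pool were profiled by Smart-seq3. Per the labels and methods, the authors mapped reads to mm10 (STAR), assigned them to genes (featureCounts in Subread), kept cells that had at least 2000 genes and at most 10% mitochondrial reads, and normalised with Seurat 4.1.0. The deposited values are the natural log (ln) of 1 plus reads per 10000. A log2 transform is named in the methods, yet the values sum to 10000 in every cell only when read as natural logs. All values above 0 (100%) came out as whole reads, within 0.01 reads. Of the 1536 wells listed, 842 cells had a column. Strand and multi-mapping settings are not given in the sources used here.

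A gene was found in a cell with any read. Thinning at random to 20000 reads kept 791 cells, and to 50000 reads 692 cells. Of the thinned cells, *Plvap* was found in 505, *Emcn* in 671, *Selp* in 177, *Cd34* in 154, *Stab2* in 319 and *Fndc1* in 198, and 684 of all cells had none of the 8 blood endothelial markers. The expected share of cells with both genes was the product of their shares. Ratios have the exact Clopper–Pearson interval of the observed share of cells with both genes, divided by the expected share. Where no cell had a gene, the limit is the share that 3 cells would give, or the exact upper bound. Cells with and without a gene were compared by the log2 ratio of means with a pseudocount of 0.1. Exon lengths and coordinates came from GENCODE M21. With 1 sample no p-value was computed. Genes named were those described, listed genes (lymphatic, blood and general endothelial, caveolae, sialomucins and selectin ligands, leukocyte passage, NF-κB, atypical receptors, LEC subtypes, dissociation, 7 other cell types and sex), and the 3 genes with the highest rank correlation with each common gene among those found in 10% of cells. Some genes that these rules take in are not reported here. The genes and lists were chosen with earlier results of these data known. The steps were tested on simulated data. Software was Python 3.11.15 with SciPy 1.17.1, pandas 2.3.3 and NumPy 2.4.6.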

Additional observations from a re-analysis of the deposited data

How the results depend on the processing

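No paired analysis was possible because the labels give 1 group, and leaving out a mouse or plate was not possible because no label ties a cell to either. The share of cells with at least 4 of the genes (57.4%) was 10.1% when a value above 1 was required, 38.4% with at least 3 reads, 32.6% and 41.8% at 20000 and 50000 reads, and 63.6% in cells with at least 3000 genes. The ratios of the 15 pairs stayed inside their counting intervals, which are wide for common genes, under each of the 9 alternatives. At 2 or more thinned reads, however, *Selp* with *Icam1* was at 1.25 and *Cd34* with *Selp* at 0.738. In unthinned cells *Selp* with *Icam1* was at 0.995 within quartiles of total reads. The share of genes past 2-fold depended on the pseudocount. At 1 in place of 0.1, the shares higher and lower were 0.0414% and 0.0207% for *Plvap*, 0% and 0.0207% for *Cd34*, 0.0104% and 0.0207% for *Emcn*, 0.0104% and 0% for *Cd300lg*, 0.0414% and 0.0414% for *Selp* and 0.0207% and 0% for *Icam1*. Both calls between the common genes themselves, *Icam1* lower with *Cd34* and *Selp* higher with *Icam1*, ended at this pseudocount. With no filter on low genes, 20157 genes were compared, and the number past 2-fold rose by over 1.5 times for those lower with *Plvap* (0.154% of genes) and *Emcn* (0.675%) and those higher with *Cd34* (0.139%) and *Selp* (0.213%). Without the cell with the highest value of each gene, 0.0932% were higher and 0.0932% lower with *Cd34*, 0.176% lower with *Emcn*, 0.0725% higher with *Cd300lg*, and 0.135% higher and 0.0311% lower with *Icam1*. The cause of these changes was not tested. Leaving out wells with *Xist* and a Y chromosome gene, cells with markers of another type or cells with 2 blood endothelial markers moved no share or pair ratio beyond its interval. The settings without blood marker cells, within dissociation quartiles or *Stab2* classes, and without the highest cell were chosen after seeing the data.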

Other observations

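*Gpihbp1*, found in 70.7% of cells, was the blood endothelial gene outside the list that these LECs carried most often. Its value ran from 0 to 4.14 with a median of 0.643 and a mean of 1.03 ± 1.13 (SD over all cells), and it was found in 70.5% of the cells with none of 8 other blood endothelial markers. Of the genes that make or carry selectin ligands, *Cd164* was found in 77.6% of cells, *Gcnt1* in 11.2%, *Chst2* in 7.72%, *Fut4* in 2.61% and *Fut7* in 0.356%, and *Glycam1*, a mucin of high endothelial venules, in 0 cells, which allows up to 0.356%.

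Differences that rested on 1 cell were seen in genes of other cell types. *Lyz2* was lower with *Plvap* (log2 ratio −2.01), and *Dcn* was higher with *Cd34* (1.99) and lower with *Emcn* (−2.07). Without the cell with the highest value of the gene, these ratios were −0.0050, 0.52 and −0.18.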
